A study of Homo sapiens with 12 samples.

Results

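The comparison described here sets the RNA of the cytoplasm against the RNA of the nucleus in HEK293T cells given wild-type (WT) SF3B1. It takes 6 of the 12 libraries of the series, 3 of WT cytoplasm and 3 of WT nuclei, and every gene that passed a filter on low counts, 20394 of the 67049 gene IDs listed for each library. HEK293T is an established line derived from human embryonic kidney. All cells of the series were transiently transfected with Lipofectamine 2000 for 48 h, with the plasmid pIRES2-SF3B1 WT in these 6 libraries and with pIRES2-SF3B1 K700E in the other 6. Both constructs therefore carry SF3B1 on a plasmid beside the cells' own gene, and transfected and untransfected cells were harvested together. No sample without a plasmid or with an empty one was analysed here, so a rise of SF3B1 was not measured. RNA was taken up in Trizol and made into libraries with a NEBNext Ultra kit from 1 ug of RNA per sample. The labels give neither the way the fractions were separated nor a step of poly(A) selection or rRNA removal. Whether the 3 libraries of a group are separate cultures is not said, so the p-values measure spread among libraries that may be purely technical.

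In human cells an mRNA is capped, spliced and polyadenylated in the nucleus and then exported through the nuclear pore, and a mature mRNA spends most of its life in the cytoplasm, where it is translated. Many long non-coding RNAs (lncRNAs) and transcripts that still hold introns stay at or near their site of transcription, and small nuclear and nucleolar RNAs do their work inside the nucleus. The ratio of an RNA between the 2 fractions reflects its export, its decay on either side and its rate of synthesis together. SF3B1, the transfected gene, encodes a splicing protein of the U2 snRNP, which binds introns at the branch point.

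Levels below are CPM, the counts of a gene relative to the total of its library, after TMM scaling, which lines the libraries up on the bulk of their genes. They are shares of a library and not amounts per cell, so more of an RNA and less of the other RNA in a fraction cannot be told apart. They are compared between libraries for the same gene, and between genes only to group or choose genes by their mean CPM. Differences are log2 of cytoplasm over nucleus with their standard error (SE), 3 libraries in each group, from edgeR's quasi-likelihood test, and a gene is called higher or lower in the cytoplasm at a Benjamini-Hochberg adjusted p under 0.05 over all 20394 genes.

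Totals ran from 9086743 to 11200562 counts in WT nuclei and from 13422598 to 18116929 in WT cytoplasm, while 30639 to 31420 genes had a count in nuclei against 23263 to 23663 in cytoplasm. Nuclear libraries differed more from each other than cytoplasmic ones, with a biological coefficient of variation of 0.407 against 0.199. Nucleus 2 and cytoplasm 3 stood apart within their groups in base composition: the deviation of genes from their group mean rose with the GC content of the transcript in both (Spearman's rho 0.610 and 0.526 across genes) and fell with it in the other 4 (rho -0.256 to -0.474). Without nucleus 2 the calls were 5665 higher and 8087 lower, and without cytoplasm 3 they were 5093 higher and 7743 lower, against 5517 and 8163 with all libraries. Of 10 markers of the HEK293 line, among them the neurofilament genes NEFL and INA and the filament gene VIM, 9 were tested, 7 were higher in cytoplasm and 0 lower (1 lower without nucleus 1). Their summed counts were 3651 to 3912 in nuclei and 9119 to 13749 in cytoplasm. Of 24 markers of fibroblasts, endothelium, blood, kidney tubule and liver, 12 had at most 10 counts in all 6 libraries together and CD3E had 0 in all, and the sum of the 24 was 955 to 2008 counts in nuclei and 379 to 629 in cytoplasm, most of it from COL1A1, LRP2 and ALB.

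The 4 RNAs that mark the fractions separated them, but TUBA1B and KCNQ1OT1 were the extremes of lists that were not all on 1 side. The tubulin list had 10 higher and 6 lower of 17. The list of architectural and nuclear RNAs had 3 higher and 10 lower of 17 (median -1.36). TUBA1B, an alpha-tubulin, stood at 30.5, 8.42 and 10.8 CPM in the 3 nuclei and at 613, 456 and 909.9 CPM in the 3 cytoplasms. UBB, a polyubiquitin gene, stood at 40.4, 30.7 and 25.9 CPM in nuclei and 588, 596 and 762 CPM in cytoplasm. In both the lowest cytoplasmic library lay far above the highest nuclear one, by 5.31 ± 0.54 (SE, 3 libraries a group, edgeR adjusted p = 5.6e-07) and 4.32 ± 0.26 (edgeR adjusted p = 1.37e-08) on the log2 scale. KCNQ1OT1, an antisense RNA that silences neighbouring genes at its own locus, was at 146, 309.8 and 691 CPM in nuclei and at 2.67, 2.08 and 0.784 CPM in cytoplasm. MALAT1, an abundant lncRNA of nuclear speckles, was at 2108, 4632 and 4428 CPM in nuclei and at 40.7, 83.9 and 32.1 CPM in cytoplasm. These groups did not overlap either, and the differences were -7.73 ± 0.64 (edgeR adjusted p = 8.9e-08) and -6.16 ± 0.59 (edgeR adjusted p = 3.16e-07). TUBA1B was highest among nuclei in nucleus 1 (6.16 without it), and KCNQ1OT1 in nucleus 3 (-6.93 without it). SF3B1 itself was at 2479, 1070.5 and 1179.8 CPM in nuclei and at 10075, 10010.5 and 8206 CPM in cytoplasm, a difference of 2.58 ± 0.32, and plasmid and endogenous transcripts cannot be told apart in its gene count.

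**Figure D1:**
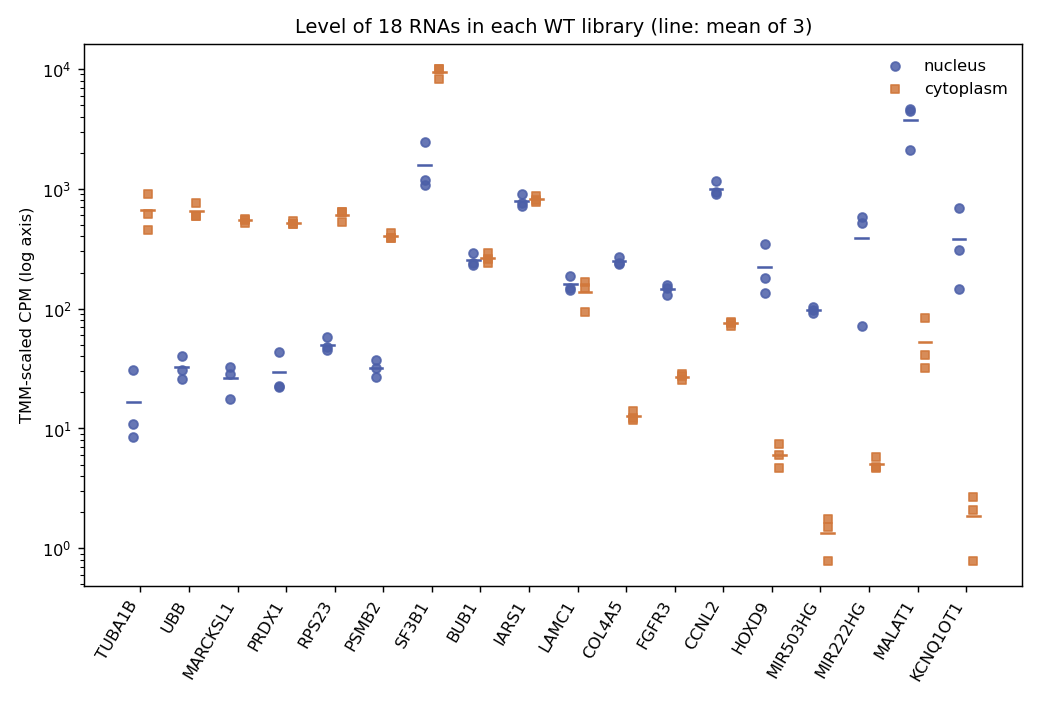
TMM-scaled CPM (log axis) of 18 RNAs in each of the 3 WT nuclear libraries (circles) and 3 WT cytoplasmic libraries (squares), with a line at each mean. RNAs at the left, from TUBA1B to SF3B1, have all cytoplasmic values above all nuclear ones, BUB1, IARS1 and LAMC1 overlap, and those from COL4A5 to KCNQ1OT1 have all cytoplasmic values below.

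Over all genes tested 5517 were called higher in the cytoplasm, which is 27.1%, and 8163 lower, which is 40%. The 3 cytoplasmic libraries lay above all 3 nuclear ones for 6054 genes and below them for 8244. Large differences were mostly towards the nucleus, with 81 genes called and over 16-fold higher in cytoplasm against 1947 over 16-fold lower, where a gene with 0 counts in a fraction is set to the bound that 3 counts over the group allow. No count at all was found in the 3 cytoplasmic libraries for 953 of the genes tested, and in the 3 nuclear ones for 5. A gene passes the filter if it reaches the minimum in 3 libraries, so it may pass through 1 fraction alone, and these numbers depend on that. With at least 1 CPM required in all 12 libraries, 3867 were higher and 4074 lower of 12309 genes, with a median of -0.04. The splits depend on the scaling too: by library size alone 3775 were higher and 10263 lower, and with upper quartile factors 4229 and 9660, as the median of all genes moved from -0.40 to -0.92 and -0.77.

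Gene type divided the ratios. Of 13901 protein-coding genes 4922 were higher (35.4%) and 4101 lower (29.5%), with a median of 0.13 and quartiles of -1.05 and 1.16. This order of higher and lower turns with the scaling, to 3352 higher and 5711 lower with library size alone, 3768 and 5241 with upper quartile factors, and 4385 and 4591 with TMM on coding genes only, and the counts of the gene lists below are likewise relative to TMM on all genes. Of 3710 lncRNAs 125 were higher (3.37%) and 2458 lower (66.3%), with a median of -2.59. Among the lncRNAs, intergenic genes had a median of -2.13 with 43 higher and 689 lower of 1165, antisense genes -2.70 with 56 and 1128 of 1651, and genes inside introns of another gene on the same strand (sense intronic) -3.62 with 2 and 230 of 301. With genes of 0 cytoplasmic counts at the bound of 3 counts over the group, the medians were -2.57 for all lncRNAs, -2.68 for antisense and -3.39 for sense intronic genes. Those that share a bidirectional promoter with a coding gene were closest to balance at -1.0, with 3 higher and 13 lower of 38. As a share of the counts of tested genes, lncRNAs took 3.58%, 4.02% and 4.53% in the 3 nuclei and 0.811%, 0.839% and 0.853% in the 3 cytoplasms. The groups did not overlap, and the two-sided exact permutation test of 3 against 3 gave p = 0.1, the smallest it allows.

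Small RNA genes were mostly lower in the cytoplasm: 0 higher and 91 lower of 99 snRNA genes, 1 and 79 of 91 snoRNA genes, 1 and 40 of 45 miRNA precursors, and 0 and 122 of 128 genes annotated as misc_RNA, a type that holds the nuclear 7SK, the cytosolic 7SL of the signal recognition particle and their copies. Many had no cytoplasmic count, 57 of the snRNA genes and 75 of the misc_RNA genes, so a fitted ratio would rest on the prior count. A gene that passes the filter through nuclear libraries alone can hardly be called higher in cytoplasm, so these counts partly follow from the filter. Over the alternatives tried, the median of genes with a SNORD symbol ran from -4.31 to 0.50. With such genes set to the bound that 3 counts over the group allow, the medians were -4.10 for snRNA, -3.80 for snoRNA, -3.79 for miRNA precursors and -4.01 for misc_RNA genes. SNORA12, a box H/ACA guide RNA, had 131 counts in nuclei and 0 in cytoplasm, which makes it at least 47.8-fold lower. SNORD14A, a box C/D guide RNA, was at 25.5, 29.2 and 24.4 CPM in nuclei and 1.51, 0.996 and 0.784 CPM in cytoplasm (-4.60 ± 0.41). SNORD17 was the snoRNA called higher (0.82 ± 0.34, edgeR adjusted p = 0.0428), with 4.23, 3.25 and 4.82 CPM in nuclei and 7.29, 7.97 and 6.41 CPM in cytoplasm. Its call ended without any 1 of the libraries other than nucleus 3, and its difference was 0.30 with library size alone.

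Pseudogenes split by kind. Processed pseudogenes, intronless copies of mRNAs, had the widest spread of the larger types, with quartiles of -3.90 and 1.93 once genes with 0 counts in a fraction are set to their bound, and 299 of 1076 were higher and 591 lower. Counts of such copies and of their parent genes can share reads, and how those were assigned is not given in the sources used here. The same holds for parents with many copies that are described below, among them TUBA1B, EEF1A1, GAPDH, HNRNPA1 and most ribosomal protein genes. Unprocessed pseudogenes, which keep introns, had 10 higher and 99 lower of 159.

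**Figure D2:**
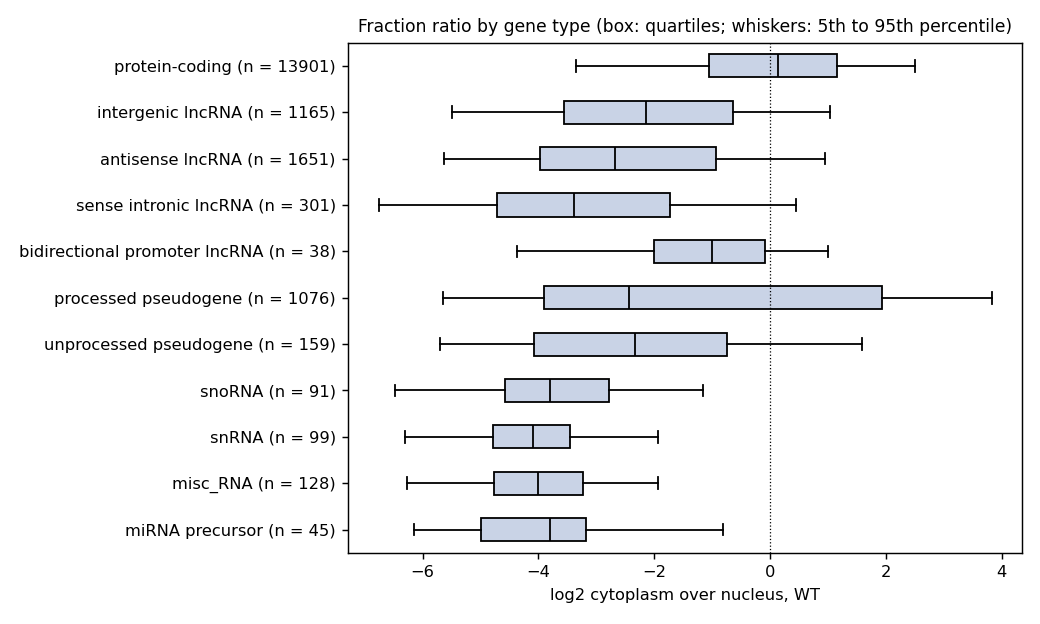
Log2 of WT cytoplasm over WT nucleus by annotated gene type (x axis). Boxes show the median and quartiles over genes, whiskers the 5th and 95th percentiles, and genes with 0 counts in one fraction are set at the bound of 3 counts. Protein-coding genes lie around 0, intergenic, antisense and sense intronic lncRNAs to the left of it and small nuclear RNAs furthest left, while processed pseudogenes span both sides.

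Across protein-coding genes of the nuclear genome (13879 genes) the ratio fell steadily with the length of the coding sequence. Genes coding under 300 bases had a median of 1.92, with 138 higher and 37 lower of 217. The median was 1.31 from 300 bases, 0.67 from 600, 0.05 from 1200 and -0.46 from 2400 bases, and -0.91 for the 735 genes of 4800 bases or more, of which 51 were higher and 426 lower. The number of exons gave a like order, from 0.98 for single-exon genes and 0.51 with 5 to 9 exons to -1.14 for the 312 genes with 40 or more, where 15 were higher and 206 lower. Within genes of 1 to 4 exons the median still went from 1.43 under 600 coding bases to 0.42 from 1200, and within genes of 20 or more exons from -0.41 between 1200 and 2400 bases to -0.98 from 4800. The span of the gene on the chromosome, introns included, separated genes less: 0.94 under 3000 bases and -0.10 from 300000. Spearman's rho across genes was -0.346 with coding length, -0.321 with exons and -0.107 with span, and genes are not independent replicates. The ratio also rose with level, with rho 0.310 for the mean CPM over 6 libraries. Medians ran from -1.87 under 1 CPM to 1.11 at 300 CPM or more. That mean comes from the same libraries as the ratio, and whether level bears on the order by length was not tested.

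The order by coding length was nearly the same in the 6 libraries of cells given K700E, with medians of 1.73 under 300 bases and -0.87 from 4800. It was also the same in WT with only genes that share no exon with another gene on their strand (1.94 and -0.91). The order by GC content was not the same in the 2 sets of cells. With WT the median was 0.39 from 45% to 50% GC and -0.72 at 65% or more, while with K700E it was 0.30 and -0.01. Without nucleus 2 the WT median at 65% or more was -0.31, so that this end of the GC trend moved with that library. LncRNAs ran the other way with GC content, from -3.27 under 40% to -1.56 at 65% or more, and their median hardly moved with exons, being -2.59 for 1 exon and -2.42 for 5 to 9.

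**Figure D3:**
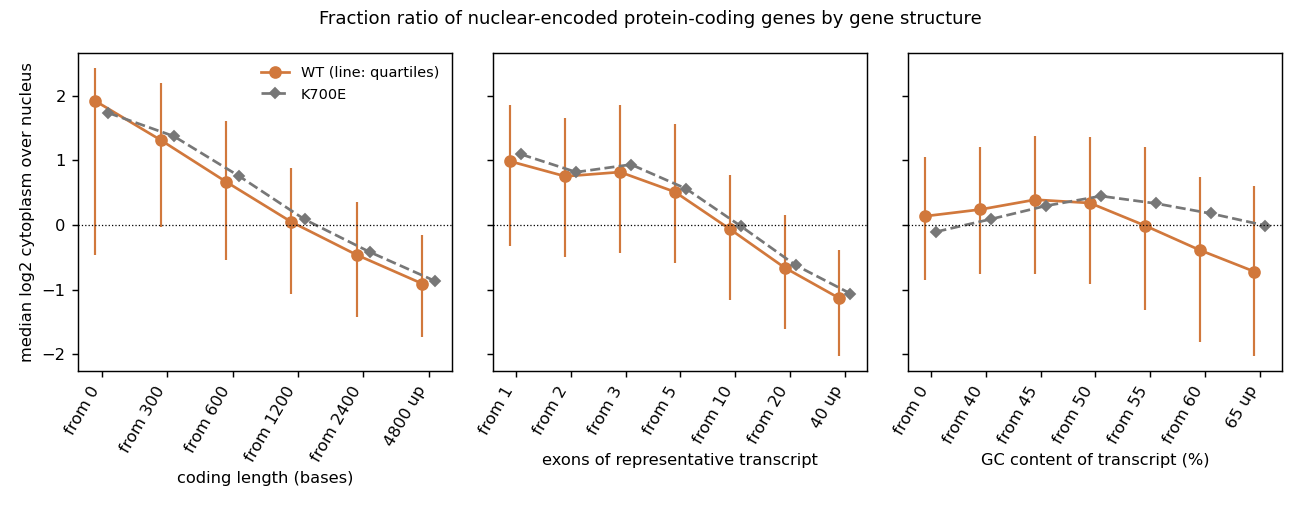
Median log2 of cytoplasm over nucleus of nuclear-encoded protein-coding genes (y axis) in bins of coding length, exon number and transcript GC content, for WT (circles, with quartiles as vertical lines) and K700E (diamonds). The WT median falls from 1.92 to -0.91 with coding length and from 0.98 to -1.14 with exons, and the lines of WT and K700E part at high GC content.

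Another property of a gene model moved with the ratio. The 11700 coding genes with no exonic base shared with another gene on the same strand had a median of 0.18, and those with 25% to 50% of their exonic bases shared had -0.75, with 50% to 75% shared -1.34, and with 75% or more -2.93 (64 genes, 8 higher and 41 lower). Reads in shared exons fit both genes, and a counting step that leaves them out would count such genes by the rest of their model. The values of genes with shared exons are marked as such below, and the part of this in their ratios was not tested. Of the 16991 tested genes without a shared exon, 4714 were higher and 6685 lower.

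Among mRNAs with large differences towards the cytoplasm, besides TUBA1B, were SDHC, MARCKSL1, UBB, ZC3HAV1L and PRDX1. The tubulin genes as a family were split, with 10 higher and 6 lower of 17 and quartiles of -1.82 and 3.14, and TUBA1B (5.31) was the highest of them. SDHC, a membrane anchor of succinate dehydrogenase, was at 12.6, 4.39 and 7.55 CPM in nuclei and 186, 181 and 168 CPM in cytoplasm. MARCKSL1, an actin-binding protein, was at 32.7, 28.5 and 17.7 CPM in nuclei and 549, 522 and 564 CPM in cytoplasm. PRDX1, a peroxide-reducing enzyme, was at 43.8, 22.8 and 22.1 CPM in nuclei and 540.2, 512 and 507 CPM in cytoplasm. Each of the 3 had cytoplasmic values within a narrow range and far above the nuclear ones (log2 4.44, 4.37 and 4.13). At the other end CDK5RAP3, which takes part in UFM1 conjugation, was at 126, 134 and 85.3 CPM in nuclei and 1.25, 2.74 and 2.88 CPM in cytoplasm (-5.63 ± 0.36), with 30.6% of its exonic bases shared with another gene. AGT, the gene of angiotensinogen, was at 32.6, 11.5 and 24.2 CPM in nuclei and 0.0890, 0.581 and 0.131 CPM in cytoplasm (-6.39 ± 0.56, and -7.52 without cytoplasm 2). PGGHG, an enzyme that trims glucose from collagen hydroxylysines, was at 107, 495 and 149.5 CPM in nuclei and 2.85, 6.06 and 5.88 CPM in cytoplasm (-5.65 ± 0.54), and its highest value came from nucleus 2 (-4.64 without it).

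Some abundant mRNAs were held to a narrow interval around an equal share. For 104 genes, 103 of them protein-coding, the 95% interval of the log2 ratio lay within 0.5 of 0. BUB1, a kinase of the spindle checkpoint, was at 292, 232 and 242 CPM in nuclei and 294, 258 and 241 CPM in cytoplasm, and its interval ran from -0.37 to 0.47. IARS1, the cytosolic isoleucyl-tRNA synthetase, was at 720.3, 898 and 755 CPM in nuclei and 874, 812 and 770.4 CPM in cytoplasm. DYNC1H1, the heavy chain of cytoplasmic dynein, was at 264, 261 and 241 CPM in nuclei and 272, 264 and 223 CPM in cytoplasm (-0.02, interval -0.48 to 0.45). The groups of all 3 overlapped, and ZMYM4, DENND5A and TTC3 had ratios of -0.05, 0.08 and -0.01. This balance is relative to TMM scaling, since with library size alone BUB1 was at -0.47, IARS1 at -0.48, DENND5A at -0.44, TTC3 at -0.52 and ZMYM4 at -0.57, all of them called lower, and DYNC1H1 at -0.54, not called.

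The protein synthesis genes were called mostly on the cytoplasmic side. Of 83 cytosolic ribosomal protein genes tested 77 were higher and 4 lower (median 2.64), against 35.4% and 29.5% of coding genes in general. RPS23, a protein of the small subunit near the decoding centre, was at 57.6, 48.0 and 44.8 CPM in nuclei and 524, 638 and 644 CPM in cytoplasm (3.58 ± 0.23). RPS10 and RPL36A went the other way, and RPS10 was at 37.7, 37.3 and 30.7 CPM in nuclei and 5.43, 4.90 and 3.73 CPM in cytoplasm (-2.91 ± 0.29). RPS10 shares 39.4% of its exonic bases with another gene on its strand and RPL36A 8.40%. Of 40 initiation and elongation factors 29 were higher and 6 lower (median 1.30), and 3 were lower without nucleus 3. EEF1A1, the factor that brings aminoacyl-tRNA to the ribosome, was at 1353, 821 and 601 CPM in nuclei and 11716, 11684 and 13951 CPM in cytoplasm (3.75 ± 0.32). EIF4A1, the helicase of the cap-binding complex, was at 67.1, 30.6 and 30.4 CPM in nuclei and 1.60, 1.16 and 2.61 CPM in cytoplasm (-4.55 ± 0.40), with 48.6% of its exonic bases shared. The 20 aminoacyl-tRNA synthetases were nearer to balance, with 10 higher and 2 lower and a median of 0.49. With library size alone 5 were higher and 5 lower and the median was -0.04, and leaving out nucleus 2, nucleus 3 or any 1 cytoplasm left 1 lower. KARS1 was higher (2.31 ± 0.20) and MARS1 lower (-1.15 ± 0.23).

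mRNAs of ribosomal proteins and of several translation factors are known to begin with a run of pyrimidines directly at the cap, a feature that couples their translation to growth signals. The windows of 30 bases around the transcription start in RefSeq (GRCh38.p14, 10 bases before the start and 20 from it, 5′ to 3′ on the gene's strand) are shown for 5 genes on either side of the comparison, because they let the start of an mRNA be read beside its ratio. Capitals mark a run of at least 7 C or T, counted from a C within 5 bases of the start and searched on the transcribed strand only. That C may itself follow other C or T, as in RPL14, EEF1A1 and RPS10, where pyrimidines also stand directly before the capitals. RPS23, chr5:82278335-82278364 on the minus strand, RPL14, chr3:40457329-40457358 on the plus strand, EEF1A1, chr6:73521013-73521042 on the minus strand, RPS10, chr6:34426050-34426079 on the minus strand, and EIF4A1, chr17:7572815-7572844 on the plus strand, read as follows.
RPS23: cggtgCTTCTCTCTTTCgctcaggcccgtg
RPL14: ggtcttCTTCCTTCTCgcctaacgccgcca
EEF1A1: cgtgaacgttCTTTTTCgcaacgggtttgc
RPS10: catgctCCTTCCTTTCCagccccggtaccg
EIF4A1: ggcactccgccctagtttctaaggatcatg

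Such a run stood at the start of 46 of 66 ribosomal protein genes that had a window (69.7%), of 7 of 31 translation factors (22.6%), of 8.18% of the 11187 tested coding genes with a window and of 7.58% of all 27305 RefSeq windows. RPS10 carries the run and was lower in the cytoplasm, while RPS23, RPL14 (3.30 ± 0.23) and EEF1A1 carry it and were higher, and no such run is in the window of EIF4A1. Ribosomal protein genes with and without the run had medians of 2.63 and 2.64. In the other coding genes the medians were 0.26 with the run and 0.15 without it, a small difference beside quartiles of -1.05 and 1.16 for all coding genes. The match describes letters in these windows and no binding or regulation. RPS23, RPL14 and RPS10 were picked after their values were seen.

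Mitochondrial and energy genes were largely on the cytoplasmic side as well. Short coding genes in general were too, with 60.7% higher and 15.1% lower from 300 to 600 coding bases and 48.0% and 20.3% from 600 to 1200. All 13 mRNAs encoded by the mitochondrial genome, which is transcribed outside the nucleus, were higher (median 3.18). MT-CO1, a core subunit of cytochrome oxidase, was at 261, 177 and 169 CPM in nuclei and at 5771, 3750.3 and 1412 CPM in cytoplasm, so that cytoplasm 3 stood lowest of its group and still above every nucleus (4.17 ± 0.40). Together these mRNAs took 1.57%, 1.15% and 0.378% of counts in the 3 cytoplasms against 0.110% to 0.147% in nuclei. Of nuclear-encoded subunits, 32 of 38 in complexes II to V were higher and 2 lower (median 2.05), and 24 of 36 in complex I higher and 4 lower (median 1.67). With a median of 478.5 coding bases, complex I (66.7% higher, 11.1% lower) was near the share of genes of like length. Complexes II to V, with 442.5 bases, had 84.2% and 5.26%. Subunits of the same complex could differ. SDHA, the flavoprotein of succinate dehydrogenase, was at 80.7, 56.0 and 51.6 CPM in nuclei and 17.5, 12.5 and 17.8 CPM in cytoplasm (-1.98 ± 0.26), opposite to its partner SDHC described above. Its coding sequence has 1992 bases against 507 in SDHC. Mitochondrial ribosomal proteins had 60 higher and 3 lower of 74 (median 1.91), and import subunits of the TIMM and TOMM families 18 higher and 2 lower of 23 (1 or 0 lower without any 1 library other than cytoplasm 3), with TOMM22 at 4.06 ± 0.29. Glycolysis had 12 higher and 1 lower of 17, with GAPDH at 3.59 ± 0.29 and PGAM1 at 3.66 ± 0.26 higher and the neuronal enolase ENO2 lower (-0.91 ± 0.23).

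Genes for folding, degrading and moving proteins followed the same direction. All 8 subunits of the TRiC chaperonin, which folds actin and tubulin, were higher (median 1.77), and CCT7 rose from 132, 133 and 80.1 CPM in nuclei to 1023, 965 and 1048 CPM in cytoplasm. Of 34 proteasome subunits 26 were higher and 3 lower (median 1.37). PSMB2, a beta subunit of the proteasome core, was at 37.0, 32.0 and 27.0 CPM in nuclei and 426, 388 and 387 CPM in cytoplasm (3.64 ± 0.22), while the alpha subunit PSMA2 was at 22.4, 14.4 and 21.5 CPM in nuclei and 1.42, 0.581 and 0.458 CPM in cytoplasm (-4.58 ± 0.51, and -5.19 without cytoplasm 1), with 14.6% of its exonic bases shared. Of 32 ubiquitin-conjugating enzymes 23 were higher and 0 lower, led by UBE2L6 (4.15 ± 0.41). The translocon and chaperones of the endoplasmic reticulum had 31 higher and 1 lower of 38 (median 1.72). The one called lower was HSP90B1, the abundant chaperone also known as GRP94, at 890.3, 510.4 and 724 CPM in nuclei and 467, 384 and 221 CPM in cytoplasm (-0.99 ± 0.29, edgeR adjusted p = 0.00606). COPI and COPII coat genes had 13 higher and 0 lower of 20 (ARF1 2.78 ± 0.26), subunits of the proton pump V-ATPase 13 and 0 of 17, and RAB GTPases of vesicle traffic 33 and 8 of 59 (RAB7A 2.79 ± 0.19, RAB40A -3.58 ± 0.34). The RAB shares (55.9% and 13.6%, median of 651 coding bases) were near the 48.0% and 20.3% of coding genes of 600 to 1200 bases. Without nucleus 2 the V-ATPase had 1 lower and ATP6V1F moved from 3.65 ± 0.39 to 4.30, and without any 1 cytoplasm 5 RAB genes were lower.

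The actin cytoskeleton list had 23 higher and 2 lower of 27 (median 2.08). ACTB, beta-actin, was at 163, 237 and 128 CPM in nuclei and 2676, 2255 and 2443 CPM in cytoplasm, and CFL1, the filament-severing cofilin, was at 42.9, 45.8 and 22.6 CPM in nuclei and 556, 517 and 696 CPM in cytoplasm. Antioxidant enzymes had 17 higher and 1 lower of 20 (median 2.52): PRDX6 was higher (2.52 ± 0.22), and GCLC, which makes the first step of glutathione synthesis, was lower (-0.81 ± 0.20). Genes of nucleotide synthesis had 18 higher and 3 lower of 25.

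mRNAs whose proteins work in the nucleus were not on 1 side. Proteins of the Sm core and the U1 snRNP had 10 higher and 0 lower of 12 (median 2.29), with SNRPD2 at 28.7, 37.3 and 19.4 CPM in nuclei and 299.9, 324 and 276 CPM in cytoplasm. The hnRNP genes had 18 higher and 1 lower of 23. HNRNPA1 was at 1239, 506 and 746 CPM in nuclei and 2996, 3179 and 3367 CPM in cytoplasm (1.94 ± 0.26), and HNRNPH1 was the one called lower, with 399, 309 and 417 CPM in nuclei against 93.1, 127 and 92.4 CPM in cytoplasm (-1.85 ± 0.23). DNA replication had 28 higher and 6 lower of 48 (11 lower with library size alone), from POLE3, an accessory subunit of DNA polymerase epsilon (3.49 ± 0.34, and 4.10 without nucleus 1), to the ligase LIG1 (-1.67 ± 0.31). Histones had 15 higher and 0 lower of 33 (1 lower without nucleus 1), among them H3-3A (3.28 ± 0.26), and Mediator subunits 15 higher and 3 lower of 28 (10 and 6 with library size alone). Histones (45.5% higher, median of 387 coding bases) had fewer higher than coding genes of 300 to 600 bases (60.7%, with 15.1% lower). Mediator subunits (53.6% and 10.7%, 918 bases) were near coding genes of 600 to 1200 bases (48.0% and 20.3%).

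DNA break repair, histone methyltransferase and centrosome genes leaned to the nucleus, with shares near those of coding genes of like length. Coding genes with 2400 to 4800 coding bases had 17.1% higher and 42.9% lower (median -0.46). Median coding length was 3145.5 bases in break repair, 4383 in histone methyltransferases and 2820 in centrosome and cilium genes. DNA break repair had 7 higher and 17 lower of 38 (18.4% and 44.7%), and 2 members show its range. XRCC6, the Ku70 subunit that binds broken ends, was at 173, 138 and 116 CPM in nuclei and 1292, 1277 and 1209 CPM in cytoplasm (3.14 ± 0.23). RECQL4, a helicase, was at 244, 690.0 and 199 CPM in nuclei and 40.7, 37.8 and 64.1 CPM in cytoplasm (-2.99 ± 0.45), highest in nucleus 2 (-2.17 without it). Histone methyltransferases had 4 higher and 13 lower of 25 (SUV39H2 2.30 ± 0.25, EZH1 -1.72 ± 0.23). Centrosome and cilium genes had 7 higher and 22 lower of 48, from IFT52 (1.72 ± 0.19) to the scaffold AKAP9 (-2.51 ± 0.30). Nucleoporins had 16 higher and 7 lower of 30, or 8 and 9 with library size alone, with the small NUP37 at 33.1, 25.5 and 23.3 CPM in nuclei and 83.7, 83.5 and 81.1 CPM in cytoplasm, and TPR, the filament protein of the nuclear basket, at 807, 619 and 768 CPM in nuclei and 481, 455 and 412 CPM in cytoplasm (-0.70 ± 0.21).

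**Figure D4:**
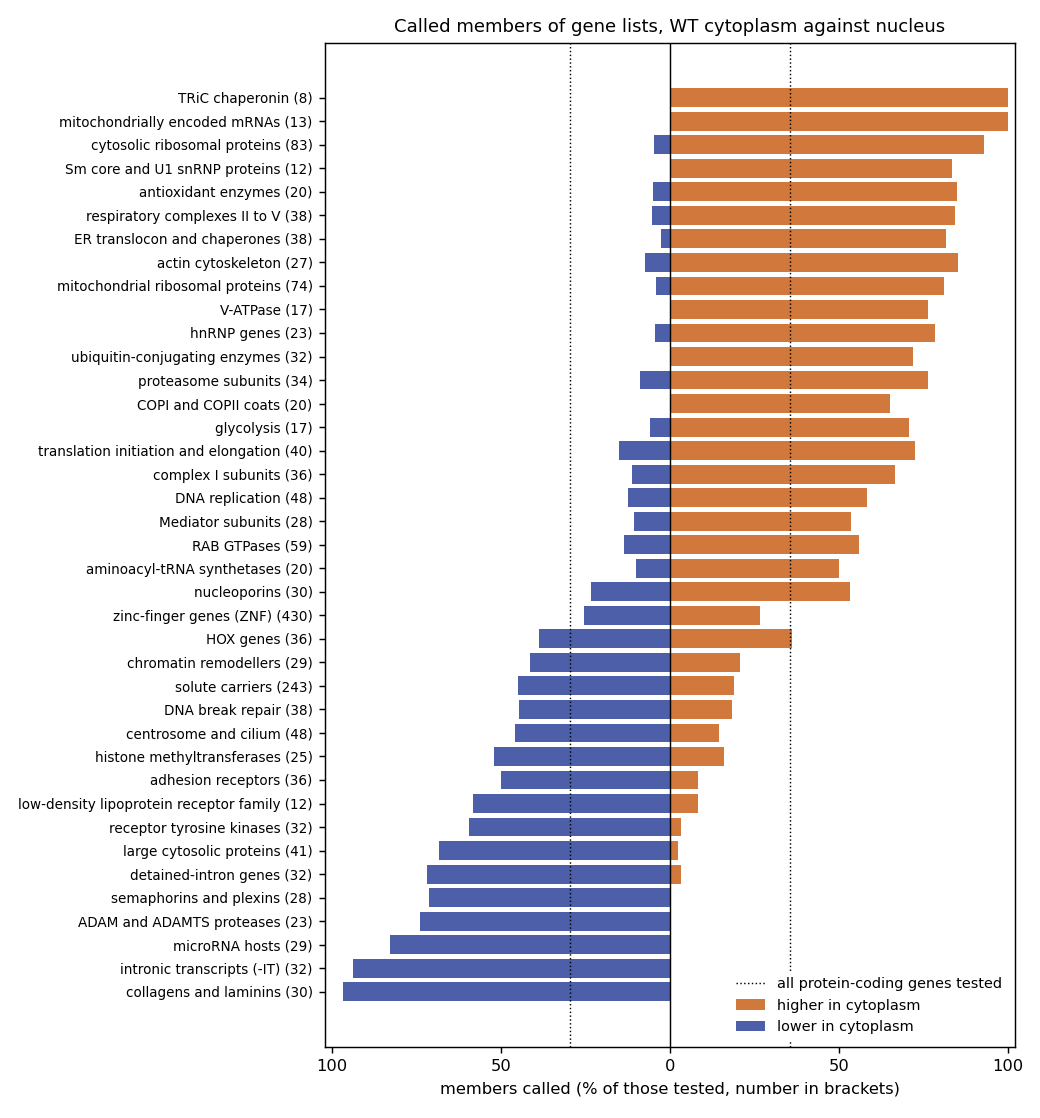
Members of gene lists called higher (right, orange) or lower (left, blue) in WT cytoplasm against nucleus, as a percentage of the members tested, whose number stands in brackets. Dotted lines give the same for all protein-coding genes, 35.4% higher and 29.5% lower. TRiC and the mitochondrially encoded mRNAs reach 100% on the right, and collagens and laminins have 29 of 30 on the left.

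The genes of the extracellular matrix had the most one-sided counts towards the nucleus among the coding lists. Of 30 collagen and laminin genes 0 were higher and 29 lower (median -2.03). COL4A5 (ENSG00000188153.14, X, 108439844 to 108697545 in GENCODE 29), a chain of basement membrane collagen, was at 240.0, 236 and 271 CPM in nuclei and 13.9, 11.9 and 12.3 CPM in cytoplasm (-4.29 ± 0.21, edgeR adjusted p = 4.73e-09). The member not called was LAMC1, the laminin gamma chain, with 188, 148 and 143 CPM in nuclei and 166, 150.1 and 94.1 CPM in cytoplasm (-0.23 ± 0.24, edgeR adjusted p = 0.406), where the groups overlapped, and with library size alone it was called lower as well (-0.74). The median coding sequence of this list had 5412 bases, against 468 in the cytosolic ribosomal proteins. Coding genes of 4800 bases or more in general had 6.94% higher and 58.0% lower, against 0% and 96.7% in this list.

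Cell surface genes leaned the same way. Adhesion receptors had 3 higher and 18 lower of 36 (median -1.10), and the integrin ITGA7 was at 31.9, 119 and 39.0 CPM in nuclei and 5.60, 6.39 and 4.31 CPM in cytoplasm (-3.54 ± 0.42, and -2.66 without nucleus 2). Receptor tyrosine kinases had 1 higher and 19 lower of 32. FGFR3, a fibroblast growth factor receptor, was at 159, 149.8 and 130.3 CPM in nuclei and 27.2, 25.4 and 28.4 CPM in cytoplasm (-2.44 ± 0.25), and the one called higher was the ephrin receptor EPHB2 (0.75 ± 0.30, edgeR adjusted p = 0.0381), whose call ended without any 1 library other than nucleus 2. Semaphorins and their plexin receptors had 0 higher and 20 lower of 28 (PLXNC1 -4.59 ± 0.40), ADAM and ADAMTS proteases 0 and 17 of 23, and the low-density lipoprotein receptor family 1 and 7 of 12 (LRP4 -1.82 ± 0.22). Without nucleus 3 the count of ADAM and ADAMTS genes lower was 11 and without nucleus 1 there was 1 higher, ADAM8 moved from -3.60 ± 0.47 to -2.68 without nucleus 2, and the lipoprotein receptor called higher was lost without nucleus 1, nucleus 3 or cytoplasm 3. Solute carriers had 46 higher and 109 lower of 243, from the mitochondrial carrier SLC25A5 (3.48 ± 0.24) to SLC39A5, with 67 nuclear and 0 cytoplasmic counts, at least 24.4-fold lower.

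Long mRNAs of cytosolic proteins leaned the same way, as did coding genes of 4800 bases or more in general (6.94% higher, 58.0% lower, median -0.91). Of 41 genes of large cytosolic proteins with a median coding length of 10299 bases, 1 was higher (2.44%) and 28 lower (68.3%, median -0.94). The one higher was lost without nucleus 2, cytoplasm 1 or cytoplasm 2, and there were 2 without nucleus 3. PLEC, the cytolinker plectin, was at 93.2, 186 and 88.3 CPM in nuclei and 18.1, 19.4 and 20.6 CPM in cytoplasm (-2.66 ± 0.35). HUWE1, a ubiquitin ligase with a coding sequence of 13122 bases, was at 488, 530.1 and 499 CPM in nuclei and 635, 603 and 504 CPM in cytoplasm (0.20 ± 0.22, edgeR adjusted p = 0.442), and its groups overlapped. The lists of TIMM and TOMM, ubiquitin-conjugating, RAB, receptor tyrosine kinase, semaphorin, ADAM, large cytosolic and HOX genes were chosen after the counts were seen.

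Transcripts that are known to be held in the nucleus with introns of their own were mostly lower. The detained-intron list, with 32 genes tested, had 1 higher and 23 lower (median -1.36). CCNL2, a cyclin of nuclear speckles, was at 942, 1169 and 902 CPM in nuclei and 78.0, 72.2 and 76.1 CPM in cytoplasm (-3.73 ± 0.23). SRSF11, an SR-like splicing factor, was at 3536, 2921 and 3971 CPM in nuclei and 733, 731 and 562 CPM in cytoplasm (-2.36 ± 0.24), and the one called higher was the splicing activator TRA2B (1.02 ± 0.20), with 3 higher without nucleus 1. The 12 SR protein genes had 3 higher and 2 lower, or 5 higher without nucleus 1 and 7 lower with library size alone, and SRSF3 was at 431, 201 and 225 CPM in nuclei and 1257, 1096 and 1071 CPM in cytoplasm (2.0 ± 0.30).

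The large families of DNA-binding factors had similar numbers on both sides under TMM scaling. Zinc-finger genes with a ZNF symbol had 115 higher and 110 lower of 430 with a median of 0.05, whose sign changed under 4 of the scalings tried, and with library size alone 51 were higher and 167 lower. HOX genes, which set position along the body axis, had 13 higher and 14 lower of 36, or 10 and 16 with library size alone. HOXC10 was at 7.44, 5.53 and 5.91 CPM in nuclei and 50.7, 41.1 and 50.9 CPM in cytoplasm (2.91 ± 0.27), and HOXD9 at 135, 349 and 179 CPM in nuclei and 7.38, 6.06 and 4.71 CPM in cytoplasm (-5.20 ± 0.35). Both sets of 3 libraries were apart in both genes, in opposite directions.

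Named lncRNAs followed the type as a whole, with exceptions. Of 29 microRNA host genes 24 were lower and 0 higher (median -2.91). MIR503HG was at 103, 91.6 and 97.2 CPM in nuclei and 1.51, 1.74 and 0.784 CPM in cytoplasm (-6.19 ± 0.33), and MIR222HG at 585, 71.5 and 517 CPM in nuclei and 4.71, 5.81 and 4.77 CPM in cytoplasm (-6.26 ± 0.63), lowest among nuclei in nucleus 2. MIRLET7BHG had 114 nuclear and 0 cytoplasmic counts, at least 41.6-fold lower. Genes with a LINC symbol had 12 higher and 188 lower of 334, and LINC00662 was at 84.7, 189 and 202 CPM in nuclei and 21.5, 20.3 and 17.8 CPM in cytoplasm.

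Hosts of snoRNAs, whose introns carry the snoRNAs and whose spliced exons are often exported, had 5 higher and 7 lower of 24, or 2 and 15 with library size alone. SNHG16 was at 74.5, 25.6 and 28.7 CPM in nuclei and 339, 336 and 348 CPM in cytoplasm (2.99 ± 0.34, and 3.71 without nucleus 1), and SNHG29 was also higher (2.04 ± 0.24). SNHG1 was at 1043, 426 and 704 CPM in nuclei and 179, 172 and 187 CPM in cytoplasm (-2.01 ± 0.32). GAS5, another snoRNA host, was at 1433, 711 and 1183 CPM in nuclei and 414, 496 and 385 CPM in cytoplasm (-1.36 ± 0.28). Other lncRNAs higher in cytoplasm were DANCR (1.96 ± 0.25), C2orf74-DT (2.91 ± 0.31), LINC02381 (1.92 ± 0.25), EPB41L4A-AS1 (1.67 ± 0.38) and RNASEH1-DT (1.72 ± 0.35). OIP5-AS1 was at 126, 96.9 and 199 CPM in nuclei and 126, 169 and 133 CPM in cytoplasm, and its groups overlapped.

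Many lncRNAs are named after a neighbouring coding gene, which allows both to be read side by side. Divergent transcripts, which carry the suffix -DT and start near the promoter of the coding gene in the opposite direction, had a ratio below that of their partner in 228 of 305 pairs, with medians of -0.93 and 0.45. Antisense RNAs with the suffix -AS lay below the partner in 521 of 676 pairs (medians -1.89 and 0.10), and transcripts from inside an intron, with the suffix -IT, in 31 of 32 (-4.33 and -0.21; the first is -4.13 with genes at 0 cytoplasmic counts set to their bound). Over the alternatives tried, the median of all tested -IT RNAs ran from -4.84 to -1.29 and that of -AS RNAs from -2.43 to -0.81. LncRNAs in general lie lower than coding genes, as given above, and across these pairs the 2 ratios, from the same libraries, were hardly related (Spearman's rho 0.0909, 0.0540 and 0.112). Genes whose spans overlap may share reads, as the strand used in counting is not given in the sources used here. In the 226 divergent pairs without overlap the RNA lay below its partner in 171, with medians of -0.87 and 0.46. In the 40 antisense pairs without overlap it lay below in 28, and the median of the RNA was -0.18 with a partner median of 0.70, against -2.08 and 0.06 in the 636 antisense pairs whose spans overlap.

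GARS1-DT was at 45.3, 93.6 and 91.7 CPM in nuclei and 10.9, 10.4 and 9.80 CPM in cytoplasm (-2.89 ± 0.30). Its partner GARS1, the glycyl-tRNA synthetase gene, was at 368, 435 and 304 CPM in nuclei and 681, 629.7 and 606 CPM in cytoplasm (0.79 ± 0.23, edgeR adjusted p = 0.00677). The 2 neighbours were thus called in opposite directions, though the call of GARS1 ended with library size alone (0.27). Their spans overlap, so they may share reads. ANKRD10-IT1 was at 45.8, 12.3 and 32.7 CPM in nuclei and 2.22, 1.49 and 1.44 CPM in cytoplasm (-4.14 ± 0.43), and its host ANKRD10, at 263, 268 and 353 CPM in nuclei and 26.0, 26.8 and 27.8 CPM in cytoplasm, was lower too (-3.46 ± 0.23). N4BP2L2-IT2 (-4.75 ± 0.46) lay below N4BP2L2 (-1.21 ± 0.22), and both were called lower. The partners GARS1, ANKRD10 and N4BP2L2 are shown because of their neighbours.

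**Figure D5:**
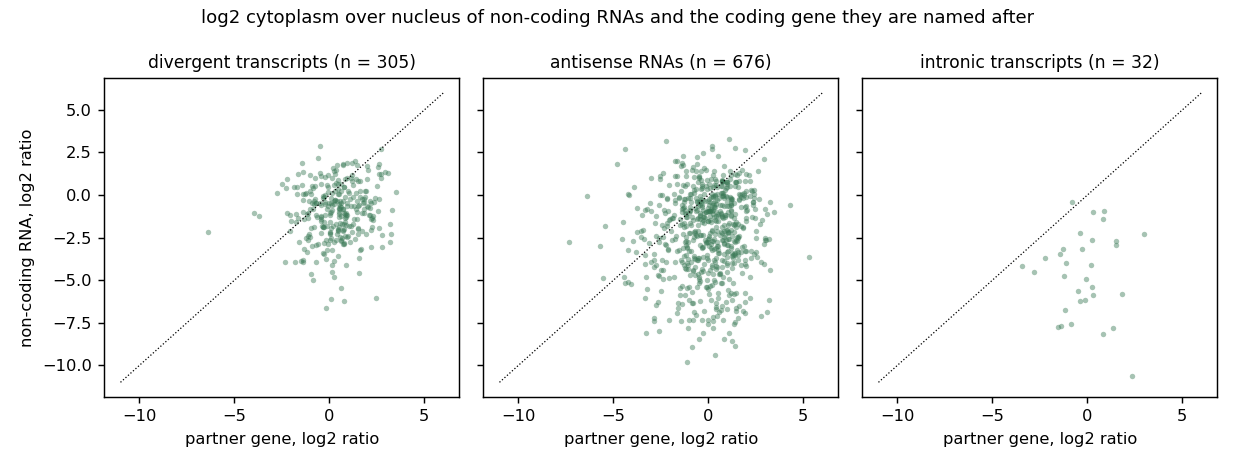
Log2 of WT cytoplasm over nucleus of lncRNAs (y axis) against that of the coding gene they are named after (x axis), one point per pair, in 305 divergent, 676 antisense and 32 intronic pairs, with a dotted line where both are equal. Most points lie below the line, 228, 521 and 31 of them.

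The same contrast in cells given K700E, from 6 other libraries, gave 5723 genes higher and 7725 lower in cytoplasm. Of the 13680 genes called with WT, 13589 had the same direction with K700E, 11947 were also called in that direction and 6 in the opposite one. The difference of the 2 contrasts, tested as an interaction, was called for 0 of 20394 genes (0.00%) by edgeR, with 672 at an unadjusted p under 0.05. DESeq2 called 3, limma voom 0, and edgeR without a filter on low counts 31. This does not show that ratios were equal: the 95% interval of the difference had a median width of 2.15 on the log2 scale, and it lay within 1 of 0 for 4699 genes. TUBA1B (5.31 with WT and 5.19 with K700E), COL4A5 (-4.29 and -4.45) and MIR503HG (-6.19 and -5.78) had close values in both.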

How the data were processed

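Raw counts per gene were deposited by the authors, 1 file per library, and held whole numbers for 67049 gene IDs. HISAT2 and DESeq are named, without versions, in the submitters' processing notes, with the counting program, genome build, annotation and strand setting not given in the sources used here. IDs without their version number were matched to gene symbols (60507) and to GENCODE 29 on GRCh38 for type, position, exons and coding length (58440 IDs with 99.7% of the WT counts). Coordinates of genes are of that annotation, and transcription starts are of RefSeq on GRCh38.p14.

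Counts of all 12 libraries were fitted in R 4.3.3 with edgeR 4.0.16 (filterByExpr with a minimum count of 10 and a minimum total of 15, TMM, 1 term per construct and fraction, quasi-likelihood F test, Benjamini-Hochberg adjustment). The contrast was WT cytoplasm minus WT nucleus, and the interaction with K700E was a second one. CPM used TMM factors, and fitted log2 ratios edgeR's default prior count. A prior count of 2 entered only the log2 CPM behind the correlations between libraries. Bounds for genes with 0 counts in a group used a floor of 3 counts over the group, which covers counting error only. Shares were compared by a two-sided exact permutation test. Python 3.11.15 and bedtools 2.31.1 were used for summaries and shared exons. The pipeline was tested on simulated counts.

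The members, lists and tests were chosen with earlier results of these data known. Named genes were called genes whose groups do not overlap and whose mean reached 10 CPM (the 12 coding genes and 8 lncRNAs with the largest differences each way), up to 4 members of each list (the largest called difference each way and the most abundant), the markers, SF3B1, and the 6 most abundant coding genes with an interval within 0.5 of 0, and not all are printed. Results of some single genes and lists are not reported here. Alternatives were other scalings (DESeq2 1.42.0 size factors, library size, upper quartile, TMM on coding genes), the DESeq2 Wald test, limma 3.58.1 voom, no filter, a minimum fold of 2, at least 1 CPM in every library, the 6 WT libraries alone, a replicate block, each library left out, and genes that overlap no other. Genes without a shared exon were added after the data were seen.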

Additional observations from a re-analysis of the deposited data

How the results depend on the processing

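Leaving out each WT library in turn gave 5093 to 5755 genes higher and 7629 to 8532 lower, 4564 to 5111 coding genes higher and 3660 to 4008 lower, 97 to 144 lncRNAs higher and 2350 to 2660 lower, and 0 interactions. Tested against a minimum fold of 2, 3065 genes were higher and 5779 lower, among coding genes 2662 higher and 2318 lower, and among lncRNAs 45 higher and 2069 lower. A filter of 1 CPM in all 12 libraries tested 12309 genes and called 3867 higher and 4074 lower. Only 642 lncRNAs passed it, with 39 higher and 350 lower, against 125 and 2458 of 3710 in the main fit. Genes whose span overlaps no other (5778) had 1882 higher and 1891 lower, against 5517 and 8163 of 20394 in the main fit. The excess of lower over higher genes was thus nearly absent in this set, and why was not tested. Of its coding genes 1668 were higher and 1128 lower of 4318, and of its lncRNAs 40 and 487 of 856. Library size alone gave 56 lncRNAs higher and upper quartile factors 71. The interaction gave 3 genes with DESeq2 and 31 without a filter, and the cause was not tested. Under library size alone BUB1 (-0.47), IARS1 (-0.48) and DENND5A (-0.44) changed sign. Of 106 genes named, 86 kept their direction and their side of the threshold under every alternative that tested them. A fit with the replicate block by construct and number gave 5416 higher and 7667 lower. The labels do not say that equal numbers mark 1 culture, and deviations of WT libraries with the same number correlated at 0.093, -0.128 and -0.158, so the numbers were not taken as a pairing. Ratios of lncRNAs were less precise than those of coding genes: the 95% interval had a median width of 3.05 against 1.24 on the log2 scale, and 397 lncRNAs had 0 counts in cytoplasm.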
